A study of Mus musculus with 12 samples.

Results

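The 38 genes described here encode ribosome biogenesis and nucleolar factors. They were taken as a list of gene symbols, and each was found as 1 row among the 31801 entries (31719 symbols) of the expression table. All 38 passed the filter on low values that left 10276 genes for testing. RNA was sequenced from RAW264.7, an established mouse macrophage-like line of virus-transformed cells, not primary macrophages, given as wild type (WT) in the labels, with 12 libraries in 4 groups of 3. The groups were cells treated with LPS (50 ng/ml) plus an anti-CD36 antibody (diluted 1 in 100), with the same LPS alone, with the same antibody alone, and untreated cells. LPS, a component of the outer membrane of bacteria, is sensed by the receptor TLR4. CD36 is a scavenger receptor for lipids and lipoproteins. No control antibody was among the groups, and the labels name neither a treatment time nor separate cultures within a group. P-values therefore measure only the spread between these libraries, which may be technical.

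Ribosomes are built in the nucleolus, where RNA polymerase I transcribes a long ribosomal RNA precursor. Box C/D and box H/ACA small nucleolar ribonucleoproteins (snoRNPs) methylate it and convert uridines to pseudouridine, the small subunit processome folds and cuts it, and further factors assemble and export the small and large subunits. In growing cells many of these genes are known targets of Myc, which binds the E-box CACGTG together with Max. RAW264.7 cells divide in culture, and LPS is known to slow the proliferation of macrophages.

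The promoters of the members, 250 bases before to 50 after the start in RefSeq (GRCm38.p6), were searched on both strands for the E-box CACGTG, for the ETS-type sequence CCGGAAGT and for the GC-box GGGCGG. None of the 3 motifs contains another, and a promoter counts once however often a motif recurs. Of the members 33 had an entry, with 37 promoters. An E-box lay in 9 of the 37 (24.3%), against 17.4% for other biogenesis genes (20 of 115), 10.4% for genes tested and 7.15% for all promoters. In the 50 transcribed bases it lay in 8 of the 37 (21.6%), against 6.96% for other biogenesis genes, 1.64% for genes tested and 1.08% for all promoters. The members with one after the start were Utp4, Wdr43, Tsr1, Pes1, Nle1, Ltv1, Utp20 and Mybbp1a, and in Nop2 it lay before the start. The ETS-type sequence was in 9 of the 37 (24.3%), against 27.8% for other biogenesis genes and 9.30% for genes tested. The GC-box was in 27 (73.0%), against 59.1% for other biogenesis genes and 63.9% for genes tested. A match describes the letters only, and no binding was measured.

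The 5 members whose E-box lay within 30 bases after the start are shown from 30 bases before to 30 after it, 5′ to 3′ on the gene's strand, with the E-box in capitals. They are shown because the E-box after the start was the motif whose share in members stood highest over its share in all promoters. The windows, in GRCm38.p6, are chr8:106893610-106893669 (plus strand), chr17:71616185-71616244 (plus), chr11:74898050-74898109 (plus), chr11:3963945-3964004 (plus) and chr11:82908366-82908425 (minus).
Utp4: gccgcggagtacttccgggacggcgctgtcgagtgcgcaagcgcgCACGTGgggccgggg
Wdr43: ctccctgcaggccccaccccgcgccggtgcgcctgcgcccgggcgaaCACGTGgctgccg
Tsr1: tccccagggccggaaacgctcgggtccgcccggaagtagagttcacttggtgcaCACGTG
Pes1: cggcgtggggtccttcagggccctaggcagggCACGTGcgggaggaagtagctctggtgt
Nle1: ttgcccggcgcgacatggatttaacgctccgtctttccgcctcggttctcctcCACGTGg

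Nop56 and Polr1b were the members with the smallest p in the comparison of LPS+anti-CD36 with LPS, and the 250 bases before their starts are shown for that reason. The windows, in GRCm38.p6 and on the plus strand, are chr2:130274162-130274411 and chr2:129100746-129100995. Each held 1 GC-box, in capitals (in Nop56 as its reverse complement), and neither held the other motifs.
Nop56: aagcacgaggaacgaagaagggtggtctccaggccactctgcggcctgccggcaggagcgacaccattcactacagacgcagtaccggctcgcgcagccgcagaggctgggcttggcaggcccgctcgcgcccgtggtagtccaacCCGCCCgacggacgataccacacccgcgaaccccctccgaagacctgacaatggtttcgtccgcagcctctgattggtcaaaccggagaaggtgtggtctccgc
Polr1b: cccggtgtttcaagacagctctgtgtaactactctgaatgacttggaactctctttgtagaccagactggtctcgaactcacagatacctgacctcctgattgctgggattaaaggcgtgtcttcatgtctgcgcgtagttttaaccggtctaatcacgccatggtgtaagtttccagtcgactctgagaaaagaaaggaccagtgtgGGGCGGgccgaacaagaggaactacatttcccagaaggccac

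The values are FPKM, fragments scaled to gene model length and to library depth. The gene model joins all annotated exons of a gene and can be longer than its mRNA, so levels of different genes compare only roughly. FPKM is relative to the rest of a library, and in bulk RNA fewer cells with a transcript and less of it per cell cannot be told apart. Depth ran from 30070450 to 54137810 fragments per library, and 1416 to 175688 fragments lay behind each value of a member. Of 10 macrophage markers 9 were at 1 FPKM or more in every library. The exception was Mertk. The highest level of any epithelial marker was 0 FPKM, of any fibroblast marker 0.0186, of any T cell marker 0.0204, of any neutrophil marker 0.547 and of any B cell marker 0.761. Summed macrophage markers ran from 6516 to 7059 FPKM with LPS+anti-CD36 and from 5487 to 7102 with LPS, against 4875 to 5205 with anti-CD36 and 3904 to 5004 in untreated cells.

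In untreated cells the members spanned a 96.0-fold range, from Npm1, a histone chaperone of the nucleolus, at 1242 ± 92.95 FPKM to Polr1a, the largest subunit of RNA polymerase I, at 12.9 ± 1.23 FPKM (SD, n = 3 here and below). Npm1 has processed pseudogenes, so its count may include or lose reads shared with them. Next in order stood Nhp2, a core protein of H/ACA snoRNPs, at 269.7 ± 78.7 FPKM and Ncl, nucleolin, at 259 ± 55.04 FPKM. Then came Nop10, the smallest H/ACA core protein, at 142 ± 40.8 FPKM and Nop56, a core protein of C/D snoRNPs, at 111 ± 2.01 FPKM. Of the 38 members 6 averaged 100 FPKM or more and 11 under 20 FPKM, with a median of 43.7 FPKM. Of the 37 pairs of neighbours in this order 35 overlapped in their libraries, and the gaps lay below Npm1 and below Ncl. Subunits of 1 complex stood at unlike levels, and their gene models differ in length. These were 1109 bases in Nop10 and 4121 in Dkc1, and 4099 in Nop56 and 10758 in Nop58. The part of length in these levels was not tested. Among H/ACA core proteins Nhp2 and Nop10 were above Gar1 (73.3 ± 10.8 FPKM) and Dkc1 (49.8 ± 13.1 FPKM), and among C/D core proteins Nop56 was above Fbl (78.6 ± 10.1 FPKM) and Nop58 (30.7 ± 4.93 FPKM).

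Npm1, Ncl and Gnl3, nucleolar proteins that also act outside ribosome assembly, passed the test in none of the comparisons below. Npm1 stood at 1045, 1127 and 1218 FPKM with LPS+anti-CD36, 1042, 1195 and 1367 FPKM with LPS, 1204, 1222 and 1215 FPKM with anti-CD36 and 1218, 1164 and 1345 FPKM in untreated cells, and all 4 groups overlapped. Ncl stood at 189, 207 and 243 FPKM with LPS+anti-CD36, 171, 232 and 287 FPKM with LPS, 243, 260.1 and 245 FPKM with anti-CD36 and 221, 234 and 322 FPKM in untreated cells. LPS replicate 1 was the lowest and untreated replicate 3 the highest of the 12 libraries. Gnl3, nucleostemin, a GTPase of the large subunit pathway, stood at 26.9, 28.8 and 34.97 FPKM with LPS+anti-CD36, 21.5, 32.7 and 37.99 FPKM with LPS, 35.8, 41.2 and 36.4 FPKM with anti-CD36 and 36.3, 39.02 and 51.8 FPKM in untreated cells. The libraries of LPS+anti-CD36 all lay below those of anti-CD36, while those of LPS and untreated cells overlapped.

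Both snoRNP classes have an enzyme among the members. Fbl, fibrillarin, the methyltransferase of C/D snoRNPs, stood at 88.9, 77.7 and 70.3 FPKM with LPS+anti-CD36, 73.7, 57.00 and 54.5 FPKM with LPS, 94.5, 91.6 and 92.1 FPKM with anti-CD36 and 85.02, 83.9 and 66.96 FPKM in untreated cells. Dkc1, dyskerin, the pseudouridine synthase of H/ACA snoRNPs, stood at 30.99, 36.2 and 42.2 FPKM with LPS+anti-CD36, 25.5, 35.2 and 42.3 FPKM with LPS, 39.9, 51.3 and 42.5 FPKM with anti-CD36 and 40.8, 43.7 and 64.9 FPKM in untreated cells. In Dkc1 LPS replicate 1 was lowest and untreated replicate 3 highest of all 12 libraries. Among assembly factors, Pes1 of the large subunit stood at 76.8, 76.2 and 72.7 FPKM with LPS+anti-CD36, 69.6, 69.1 and 64.4 FPKM with LPS, 83.7, 91.1 and 93.3 FPKM with anti-CD36 and 90.8, 87.6 and 76.8 FPKM in untreated cells. The 3 LPS libraries were its 3 lowest. Bysl, bystin, of the small subunit, stood at 24.4, 21.8 and 22.1 FPKM with LPS+anti-CD36, 20.9, 17.5 and 15.4 FPKM with LPS, 22.9, 17.99 and 20.3 FPKM with anti-CD36 and 18.4, 17.6 and 15.00 FPKM in untreated cells. Its LPS libraries overlapped those of untreated and of anti-CD36 cells, and all lay below those of LPS+anti-CD36.

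**Figure D1:**
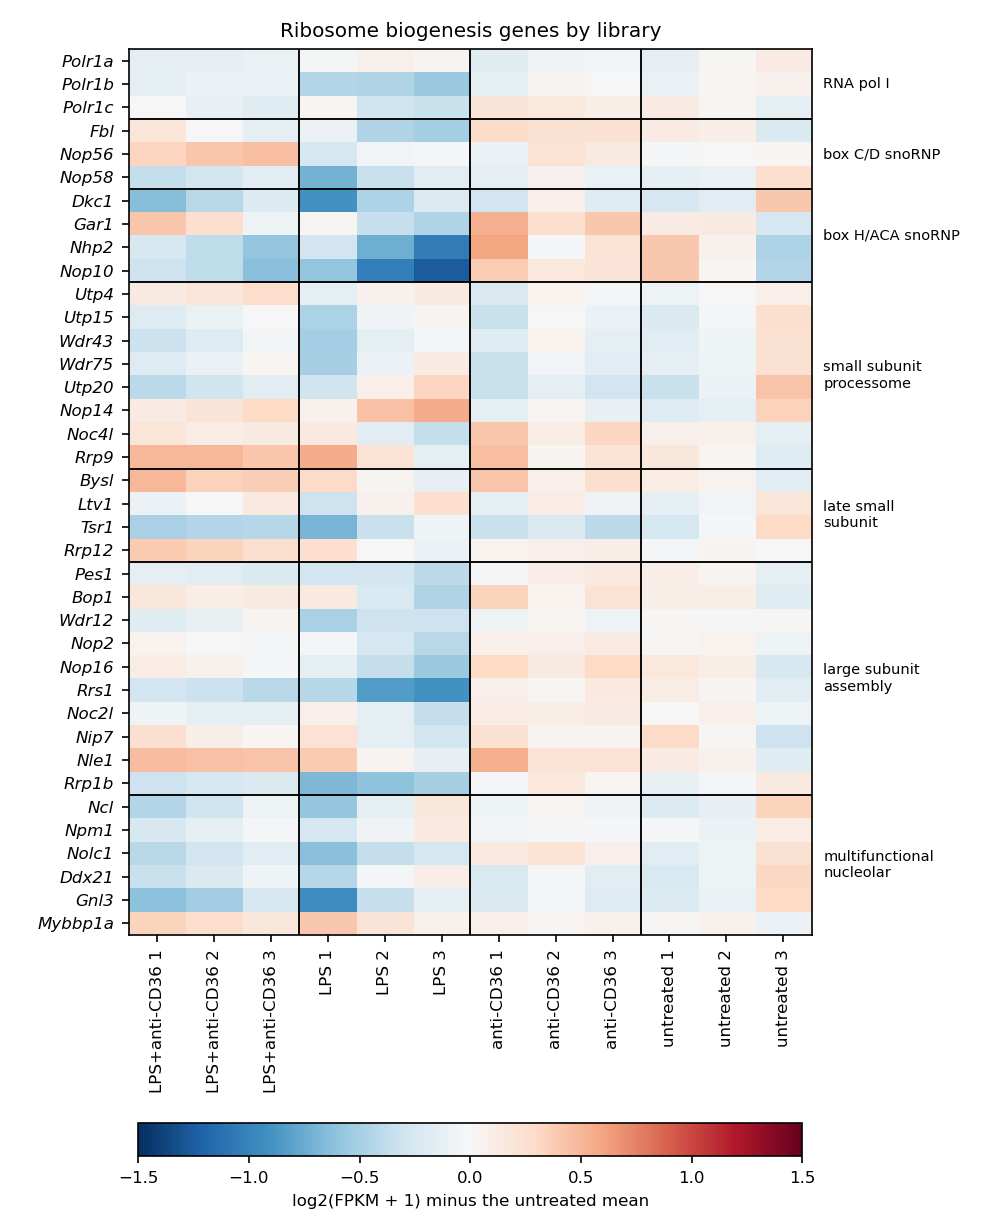
Each row is 1 of the 38 members, grouped by role, and each column 1 library. Colour gives log2(FPKM + 1) minus the mean of the 3 untreated libraries, from blue (lower) to red (higher). Nop10, Nhp2, Rrs1 and Rrp1b are lower in the LPS libraries, Nop56 is higher in the 3 LPS+anti-CD36 libraries, and replicates 1 and 3 of LPS and of untreated cells differ from each other in many rows.

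The first question was what LPS alone did to these genes. Of the 38 members 11 fell and 0 rose (limma, adjusted p under 0.05). The fall covered 28.9% of members, against 33.1% of all genes tested that were called lower, so it was near the share of all genes. Among all genes 16.6% were called higher. At an unadjusted p under 0.05, 2 members were higher and 15 lower, against 18.4% and 37.2% of all genes. The voom fit on recovered fragments called 0 higher and 12 lower, against 16.8% and 33.1% of all genes. The median change of members was −0.18 and of all genes −0.14, on the log2(FPKM + 1) scale used for every change here. Of the members called, 5 act in large subunit assembly (of 10), 2 are C/D core proteins (of 3), 2 H/ACA core proteins (of 4), 1 belongs to RNA polymerase I (of 3) and 1 to the multifunctional nucleolar proteins (of 6). In the small subunit processome 0 of 8 and in late small subunit assembly 0 of 4 were called.

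In RNA polymerase I, Polr1b, its second largest subunit, had 10.7, 10.7 and 9.83 FPKM with LPS, against 13.9, 15.2 and 15.7 FPKM in untreated cells. The groups did not overlap, and Polr1b fell (−0.48 ± 0.075 SE, adjusted p = 0.000228). Polr1a, which forms the active centre together with Polr1b, averaged 13.2 ± 0.525 FPKM with LPS and 12.9 ± 1.23 FPKM in untreated cells (0.027 ± 0.079 SE). Polr1c, a subunit shared with RNA polymerase III, averaged 25.9 ± 3.87 FPKM with LPS and 29.8 ± 2.89 FPKM in untreated cells (−0.20 ± 0.11 SE, adjusted p = 0.135). Only Polr1b of the 3 passed the test.

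Among C/D core proteins Nop58 had 18.3, 24.03 and 27.3 FPKM with LPS, against 27.4, 28.4 and 36.4 FPKM in untreated cells, where the highest LPS library lay just below the lowest untreated one. Nop58 fell (−0.40 ± 0.14 SE, adjusted p = 0.0373), and so did Fbl (−0.35 ± 0.13 SE, adjusted p = 0.0451), whose groups overlapped. Nop56, their partner in the same particle, did not pass (−0.10 ± 0.098 SE, adjusted p = 0.413). Over the alternatives run the adjusted p ranged up to 0.321 for Fbl, which was not called without LPS+anti-CD36 replicate 2, LPS replicate 2 or 3, untreated replicate 1 or 2 or any anti-CD36 library. It ranged up to 0.131 for Nop58, which was not called without LPS+anti-CD36 replicate 2, LPS replicate 1 or 2, anti-CD36 replicate 3 or untreated replicate 2 or 3.

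The H/ACA core proteins held the largest fall of the members. Nop10 had 91.1, 66.4 and 57.5 FPKM with LPS, against 183, 141 and 101 FPKM in untreated cells, with no overlap, and fell (−0.96 ± 0.21 SE, adjusted p = 0.00224). Nhp2 had 215, 157 and 126 FPKM with LPS, against 346, 274 and 189 FPKM in untreated cells, and fell as well (−0.69 ± 0.24 SE, adjusted p = 0.0333), although LPS replicate 1 lay above untreated replicate 3. Nhp2 was not called without LPS replicate 2 or 3 or untreated replicate 1 or 2 (adjusted p up to 0.131 over the alternatives run). Dkc1 (−0.52 ± 0.21 SE, adjusted p = 0.0527) and Gar1 (−0.26 ± 0.16 SE, adjusted p = 0.214) did not pass. Nop10 and Nhp2 have the shortest gene models of the 38, 1109 and 1146 bases, and their libraries followed the length pattern described below.

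In large subunit assembly Rrs1, known in yeast for bringing the 5S particle to the precursor, had 54.2, 40.6 and 38.6 FPKM with LPS, against 79.2, 75.2 and 65.7 FPKM in untreated cells, with no overlap. Rrs1 fell (−0.72 ± 0.12 SE, adjusted p = 0.000385). Rrp1b, a nucleolar protein of large subunit processing, had 8.96, 9.49 and 10.3 FPKM with LPS, against 13.7, 14.7 and 16.5 FPKM in untreated cells, again without overlap. Rrp1b fell (−0.59 ± 0.086 SE, adjusted p = 0.000128) and had the smallest p of all members. Pes1, Bop1 and Wdr12 form the PeBoW complex. Wdr12 (−0.37 ± 0.080 SE, adjusted p = 0.00219) and Pes1 (−0.32 ± 0.083 SE, adjusted p = 0.00683) fell with groups apart, while Bop1 did not pass (−0.17 ± 0.14 SE, adjusted p = 0.327). Nop16 fell (−0.35 ± 0.12 SE, adjusted p = 0.0349), and its groups overlapped. Nop16 was not called without LPS+anti-CD36 replicate 2, LPS replicate 2 or 3 or untreated replicate 1 or 2 (adjusted p up to 0.296 over the alternatives run). The RNA methyltransferase Nop2 (−0.23), Noc2l (−0.14), Nip7 (−0.068) and Nle1 (0.10) did not pass.

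The small subunit genes did not pass, and their changes had both signs. Utp4 (0.014), Utp15 (−0.16), Wdr43 (−0.23) and Wdr75 (−0.16) belong to the first module of the processome to join the precursor. The scaffold protein Utp20 (0.035) and Noc4l (−0.13), the partner of Nop14, act later in it. Among late factors Tsr1 had the most negative change (−0.37 ± 0.16 SE, adjusted p = 0.0733), while Ltv1 (0.0013), Bysl (0.068) and Rrp12 (0.054) were near 0. The medians were −0.056 for the processome and 0.027 for late small subunit assembly, against −0.28 for large subunit assembly. The wider lists used below did not show this split. Of other small subunit genes 11 of 44 fell (25%, median −0.12), and of other large subunit genes 15 of 51 (29.4%, median −0.13).

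Of the multifunctional proteins, Nolc1, a snoRNP chaperone, had 53.9, 64.9 and 69.7 FPKM with LPS, against 74.9, 79.3 and 98.2 FPKM in untreated cells. Nolc1 fell (−0.41 ± 0.12 SE, adjusted p = 0.0146), and it was not called without untreated replicate 3 (adjusted p up to 0.0692 over the alternatives run). The largest positive changes did not pass the test. Nop14, of the processome, had 36.5, 47.6 and 51.7 FPKM with LPS, against 30.3, 31.5 and 44.5 FPKM in untreated cells (0.35 ± 0.15 SE, adjusted p = 0.0746). Mybbp1a, a Myb-binding nucleolar protein, had 128, 110.2 and 101 FPKM with LPS, against 97.6, 101 and 90.7 FPKM in untreated cells (0.22 ± 0.094 SE, adjusted p = 0.0715). In both genes the groups overlapped. The helicase Ddx21 (−0.12), Npm1 (−0.054), Ncl (−0.18) and Gnl3 (−0.47 ± 0.19 SE, adjusted p = 0.0596) had negative changes that did not pass. Rrp9, of the U3 particle, had 26.3, 20.5 and 15.8 FPKM with LPS, against 19.9, 17.98 and 15.2 FPKM in untreated cells (0.20 ± 0.16 SE, adjusted p = 0.332), and LPS replicates 1 and 2 lay above all 3 untreated libraries.

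Polr1b, Nop10, Rrs1, Rrp1b and Wdr12 were called lower in all 23 alternatives run. The count of 11 was 7 without LPS replicate 2 and 7 without untreated replicate 2, where 28.5% and 27.4% of all genes fell. It was 5 under median-of-ratios scaling. That scaling put the median change of all genes at −0.011 in place of −0.14, with 22.6% of genes higher and 21.8% lower, and it called Nop14 and Mybbp1a higher. With the trend on GC content and gene length removed, 15 members were lower and 6 higher (Polr1a, Nop14, Rrp9, Rrp12, Nle1 and Mybbp1a), against 35.2% of all genes lower and 24.9% higher in that fit.

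**Figure D2:**
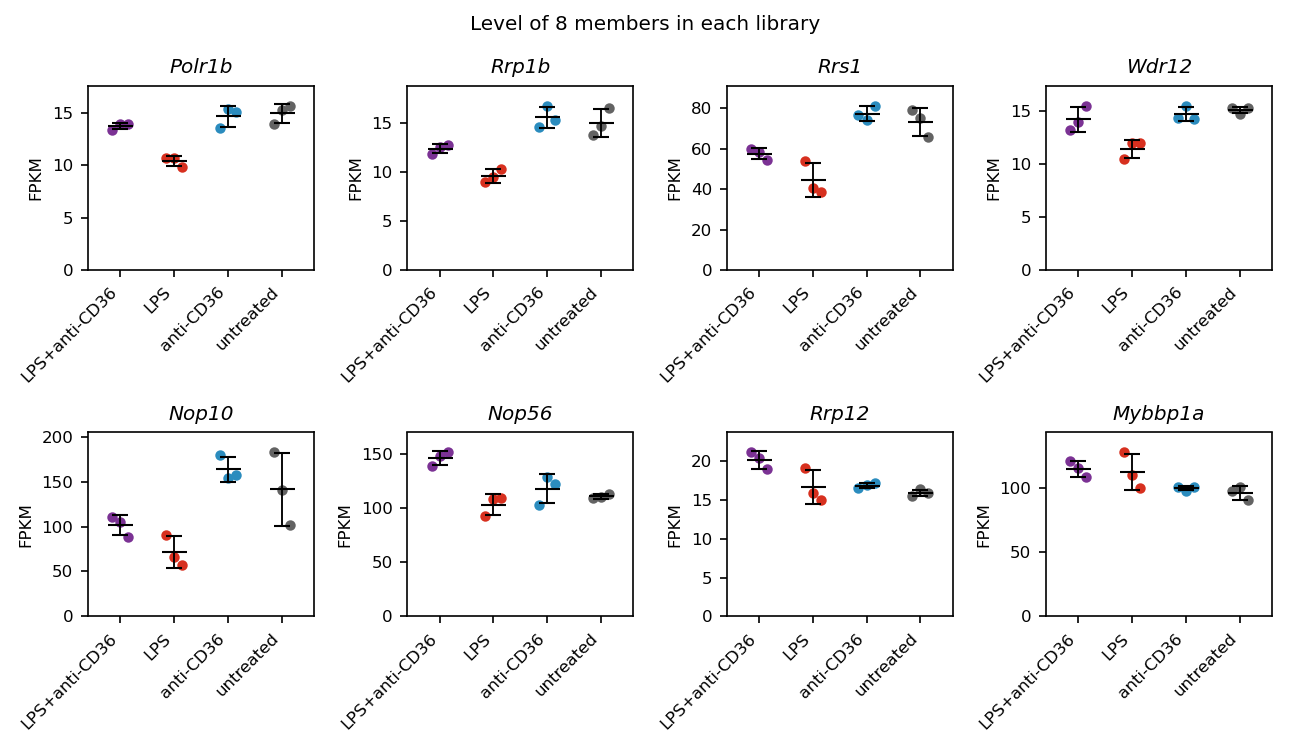
Each panel is 1 member and each point the FPKM of 1 library. The bar is the mean and the whiskers 1 SD of 3 libraries. The 3 LPS libraries of Polr1b, Rrp1b and Wdr12 lie below all others, and the 3 LPS+anti-CD36 libraries of Nop56 lie above all others.

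Other genes of the same pathway, from 4 lists of RNA polymerase I, snoRNP, small subunit and large subunit genes, were set beside them. Of 117 tested, 33 fell and 5 rose with LPS, with a median of −0.14. Ubtf, the upstream binding factor that opens ribosomal DNA for RNA polymerase I, had 18.9, 17.8 and 16.5 FPKM with LPS, against 42.7, 43.8 and 39.8 FPKM in untreated cells, and fell (−1.20 ± 0.072 SE, adjusted p = 8.27e-08). Tcof1, treacle, rose (0.31 ± 0.12 SE, adjusted p = 0.0404), as did the processome protein Nol10 (0.45 ± 0.071 SE, adjusted p = 0.000241) and the large subunit GTPase Gtpbp4 (0.42 ± 0.15 SE, adjusted p = 0.0339). The falls of smallest p in the other lists were in Naf1, an H/ACA assembly factor (−0.55), the helicases Dhx37 (−0.69) and Ddx51 (−0.67), and Exosc8 of the RNA exosome (−0.96 ± 0.071 SE, adjusted p = 4.75e-07). Among 13 exosome and trimming genes 6 fell and 1, Mphosph6, rose (0.34 ± 0.074 SE, adjusted p = 0.00224). Of 78 cytosolic ribosomal proteins 1 fell, Rps10 (−0.40 ± 0.12 SE, adjusted p = 0.0153), and 0 rose, with a median of −0.10. Rps10 was near the filter on low values, at 1.24 to 2.83 FPKM over the 12 libraries. Ribosomal proteins have many pseudogenes, so their counts are uncertain.

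Regulators of the pathway moved in opposite directions. Myc had 8.74, 8.01 and 6.82 FPKM with LPS, against 0.252, 0.147 and 0.163 FPKM in untreated cells, and rose (2.89 ± 0.091 SE, adjusted p = 3.41e-10). Its relative Mycn, which binds the same E-box, had 118, 94.3 and 85.2 FPKM with LPS, against 219, 209.8 and 178 FPKM in untreated cells, and fell (−1.03 ± 0.13 SE, adjusted p = 5.9e-05). Per length, Mycn was still the higher of the pair in every LPS library. Of 13 regulators tested 3 rose and 4 fell. The cell cycle list moved as a whole: 20 of 20 genes of DNA replication and mitosis fell (median −1.13), among them the cyclin Ccna2 (−2.18 ± 0.071 SE, adjusted p = 4.66e-10). The summed level of that list was 569 to 587 FPKM with LPS, against 1368 to 1375 FPKM in untreated cells, while the members without Npm1 summed to 1822 to 1852 FPKM with LPS, against 2194 to 2284 FPKM in untreated cells. The part of cell division in the members' falls was not tested.

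**Figure D3:**
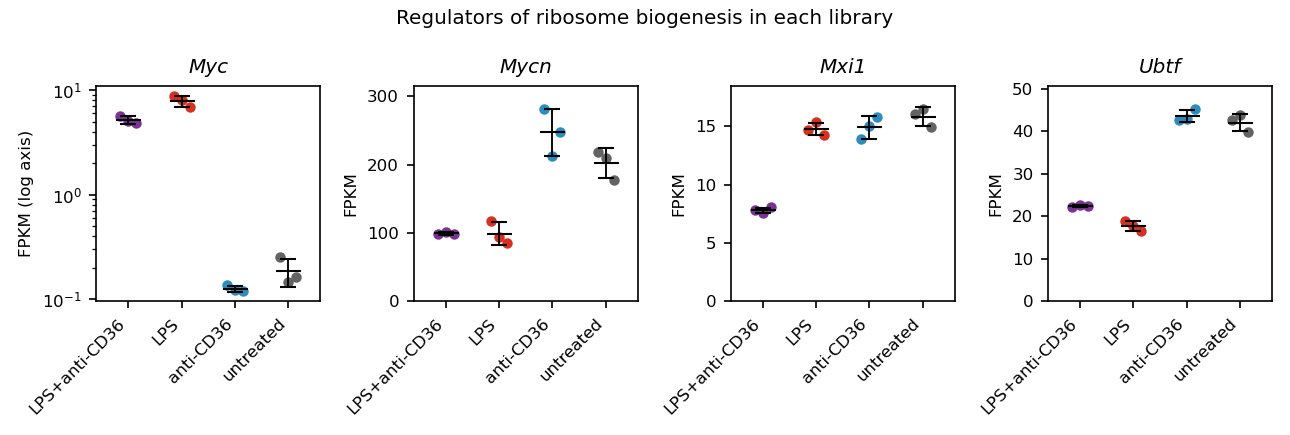
Each point is the FPKM of 1 library, with the mean and 1 SD of 3 libraries. Myc is drawn on a log axis, the others from 0. Myc is high and Mycn and Ubtf are low in both LPS groups, and Mxi1 is low in the LPS+anti-CD36 libraries.

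The second question was whether the antibody alone moved these genes. None of the 38 members was called with anti-CD36 against untreated cells (limma), where 0.146% of all genes were called higher and 0.195% lower. At an unadjusted p under 0.05, 3 members were higher and 0 lower, against 8.99% and 10.2% of all genes. The voom fit called 0 in either direction, against 0.165% and 0.253% of all genes. The median change of members was 0.063, against −0.0073 for all genes. The largest positive changes were in Gar1, Nle1 and Noc4l. Gar1 had 106, 86.9 and 96.7 FPKM with anti-CD36, against 79.1, 79.9 and 60.9 FPKM in untreated cells (0.40 ± 0.16 SE, adjusted p = 0.226). Nle1, known in yeast for its contact with the remodelling enzyme Mdn1, had 20.97, 16.5 and 16.6 FPKM with anti-CD36, against 15.4, 14.8 and 12.4 FPKM in untreated cells (0.32 ± 0.14 SE, adjusted p = 0.239). Noc4l had 33.3, 26.8 and 31.2 FPKM with anti-CD36, against 26.1, 26.1 and 22.4 FPKM in untreated cells (0.28 ± 0.12 SE, adjusted p = 0.251). All 3 pairs of groups were apart by a small gap, and none of these genes passed. The libraries did not overlap in 7 of 38 members with anti-CD36 above and 0 with it below, against 12.1% and 10.5% of all genes.

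The largest negative changes were in genes whose untreated replicate 3 stood high. Tsr1, a late small subunit factor, had 15.3, 16.7 and 14.6 FPKM with anti-CD36, against 16.1, 19.1 and 24.1 FPKM in untreated cells (−0.31 ± 0.16 SE, adjusted p = 0.294). Utp20, a large scaffold protein of the processome, had 11.4, 13.2 and 11.8 FPKM with anti-CD36, against 11.4, 13.7 and 20.1 FPKM in untreated cells (−0.25 ± 0.19 SE, adjusted p = 0.432). Wdr75 had 21.8, 27.1 and 24.6 FPKM with anti-CD36, against 25.1, 26.2 and 32.6 FPKM in untreated cells (−0.18 ± 0.15 SE, adjusted p = 0.483). All 3 overlapped between the groups. Polr1b (−0.025), Nop56 (0.083), Fbl (0.24), Pes1 (0.072), Bysl (0.25), Dkc1 (−0.13), Gnl3 (−0.15), Ncl (−0.033) and Npm1 (−0.030) did not pass either. Across the 38 members the change ran against gene model length (Spearman −0.62, a description over genes that share libraries). Tsr1 shares 32.3% of its gene model with Srr on the other strand, which was at most at 1.59 FPKM. Of the 4 other biogenesis lists 0 of 117 genes were called with the antibody, and 0 of 78 ribosomal proteins. Myc had 0.136, 0.122 and 0.121 FPKM with anti-CD36, against 0.252, 0.147 and 0.163 FPKM in untreated cells (−0.075 ± 0.091 SE, adjusted p = 0.616).

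The third question was what the antibody did in the presence of LPS. Of the 38 members 5 rose and 0 fell with LPS+anti-CD36 against LPS (limma). The 5 were 13.2% of members, against 7.34% of all genes called higher, and 8.14% of all genes were called lower. At an unadjusted p under 0.05, 14 members were higher and 0 lower, against 17.8% and 16% of all genes. The voom fit called 5 and 0, against 7.25% and 8.72% of all genes. The median change of members was 0.17, against 0.017 for all genes, and 31 of 38 lay above 0. The change ran against gene model length here too (Spearman −0.39 over the 38 members, a description over genes that share libraries). The 5 were Nop56 of the C/D particle, Polr1b of RNA polymerase I, and Rrp1b, Wdr12 and Nop16 of large subunit assembly.

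Nop56 had 139, 148 and 151 FPKM with LPS+anti-CD36, against 92.3, 108 and 109 FPKM with LPS. The groups were far apart, and Nop56 rose (0.50 ± 0.098 SE, adjusted p = 0.0075). Its gene hosts snoRNAs within its model, whose reads cannot be separated from the mRNA here. Polr1b had 13.4, 13.96 and 13.9 FPKM with LPS+anti-CD36, against 10.7, 10.7 and 9.83 FPKM with LPS, and rose without overlap (0.37 ± 0.075 SE, adjusted p = 0.00869). Rrp1b had 11.8, 12.5 and 12.7 FPKM with LPS+anti-CD36, against 8.96, 9.49 and 10.3 FPKM with LPS, and rose without overlap too (0.34 ± 0.086 SE, adjusted p = 0.0244). Wdr12 (0.29 ± 0.080 SE, adjusted p = 0.034) and Nop16 (0.41 ± 0.12 SE, adjusted p = 0.049) rose with smaller margins.

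The single largest positive change was in Nop10, with 110.4, 105 and 88.8 FPKM with LPS+anti-CD36, against 91.1, 66.4 and 57.5 FPKM with LPS. LPS replicate 1 lay above LPS+anti-CD36 replicate 3, and Nop10 did not pass (0.52 ± 0.21 SE, adjusted p = 0.105). Gar1 had 97.2, 86.7 and 69.2 FPKM with LPS+anti-CD36, against 74.3, 57.2 and 52.8 FPKM with LPS (0.45 ± 0.16 SE, adjusted p = 0.0773), with the same overlap. Rrs1 just missed the threshold (0.38 ± 0.12 SE, adjusted p = 0.0542), with groups apart by a small gap. Fbl (0.36), Bysl (0.34), Dkc1 (0.10), Pes1 (0.15), Gnl3 (0.0063), Npm1 (−0.082) and Ncl (−0.089) were not called.

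The largest negative changes, none of which passed, were in the processome and RNA polymerase I. Utp20 had 10.9, 11.8 and 13.01 FPKM with LPS+anti-CD36, against 11.8, 15.5 and 18.6 FPKM with LPS (−0.32 ± 0.19 SE, adjusted p = 0.245). Polr1a had 11.5, 11.6 and 11.9 FPKM with LPS+anti-CD36, against 12.6, 13.6 and 13.3 FPKM with LPS (−0.16 ± 0.079 SE, adjusted p = 0.176), and here the groups did not overlap. Nop14 had 38.2, 40.1 and 43.4 FPKM with LPS+anti-CD36, against 36.5, 47.6 and 51.7 FPKM with LPS (−0.14 ± 0.15 SE, adjusted p = 0.521). Polr1a and Polr1b, the 2 largest subunits of one enzyme, had changes of opposite sign here, but that of Polr1a was not called. Over the 23 alternatives run it ranged from −0.26 to 0.036, with the other sign in 2.

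The count of 5 rested on the libraries used. It was 16 without LPS replicate 1, and 2 without LPS replicate 2 or any 1 of the LPS+anti-CD36 replicates. Without LPS replicate 3, anti-CD36 replicate 3 or untreated replicate 2 it was 3. It was 4 without anti-CD36 replicate 1 or 2, and 7 without untreated replicate 3. The share of all genes called higher moved too, to 19.2% without LPS replicate 1 and 2.51% without LPS replicate 2. That share was 2.25% to 3.72% without an LPS+anti-CD36 library and 3.14% without LPS replicate 3. Without anti-CD36 replicates 1, 2 and 3 it was 6.79%, 6.37% and 5.18%, each left out alone. Without untreated replicate 2 it was 5.30%, and without untreated replicate 3 it was 9.62%. Nop56 and Polr1b were called in 22 of 23 alternatives, but not under TPM scaling (adjusted p = 0.0774 for Nop56 and 0.103 for Polr1b), where Nop16 was the 1 member called. Rrp1b was not called without LPS replicate 2 or any LPS+anti-CD36 library (adjusted p up to 0.232 over the alternatives run). Wdr12 (up to 0.277) was not called without these or LPS replicate 3, anti-CD36 replicate 3 or untreated replicate 2, and Nop16 (up to 0.182) without any of these or anti-CD36 replicate 1 or 2.

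In the 4 other biogenesis lists 17 of 117 genes rose and 1 fell in the same comparison, with a median of 0.14. Ubtf had 22.3, 22.6 and 22.5 FPKM with LPS+anti-CD36, against 18.9, 17.8 and 16.5 FPKM with LPS, and rose (0.33 ± 0.072 SE, adjusted p = 0.0133). Nol7 (0.31), Pelp1 (0.47) and Exosc7 (0.43) had the smallest p among the rises of their lists. Mdn1, the large ATPase that remodels large subunit precursors, fell (−0.52 ± 0.16 SE, adjusted p = 0.0495). Of 78 ribosomal proteins 5 rose and 0 fell, with a median of 0.36, and Rpl30 had the smallest p (0.71 ± 0.14 SE, adjusted p = 0.00771). Of 13 regulators 5 fell and 0 rose. Myc had 5.67, 5.07 and 4.81 FPKM with LPS+anti-CD36, against 8.74, 8.01 and 6.82 FPKM with LPS, and fell (−0.51 ± 0.091 SE, adjusted p = 0.00429). Mxi1, a Max partner that represses Myc targets, had 7.79, 7.58 and 8.03 FPKM with LPS+anti-CD36, against 14.7, 15.3 and 14.3 FPKM with LPS, and fell (−0.84 ± 0.071 SE, adjusted p = 2.53e-05). Mycn averaged 99.5 ± 2.22 FPKM with LPS+anti-CD36 and 99.1 ± 16.9 FPKM with LPS (0.019). Of exosome genes, Mphosph6 fell (−0.24). In the cell cycle list 3 of 20 genes rose, such as Birc5 (0.61), and 1, Bub1, fell (−0.80).

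The fourth comparison gave the LPS change in cells that also had the antibody. With LPS+anti-CD36 against anti-CD36, 3 members rose and 6 fell, against 16.3% of all genes called higher and 31.3% called lower. As shares of the members these were 7.89% and 15.8%. The voom fit gave the same counts, against 16.5% and 31.5% of all genes. At an unadjusted p under 0.05, 3 members were higher and 8 lower, against 18.3% and 35.7% of all genes. The median change of members was −0.090, against −0.12 for all genes. The 6 that fell, Nop10, Nhp2, Nolc1, Rrs1, Rrp1b and Pes1, were also among the 11 that fell with LPS alone. They were 54.5% of those 11, while 81.1% of all genes that fell with LPS alone also fell with the antibody. The 2 comparisons share no library. The 3 that rose, Nop56, Rrp12 and Utp4, were not called with LPS alone.

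Nop56 had 139, 148 and 151 FPKM with LPS+anti-CD36, against 103, 129 and 122 FPKM with anti-CD36, with no overlap, and rose (0.31 ± 0.098 SE, adjusted p = 0.0208). Rrp12, which escorts the small subunit out of the nucleus, had 21.1, 20.3 and 18.9 FPKM with LPS+anti-CD36, against 16.5, 16.8 and 17.2 FPKM with anti-CD36, and rose (0.24 ± 0.087 SE, adjusted p = 0.0378). Utp4, of the processome, had 53.3, 55.3 and 58.4 FPKM with LPS+anti-CD36, against 41.6, 50.3 and 47.9 FPKM with anti-CD36, and rose with an adjusted p near the threshold (0.25 ± 0.097 SE, adjusted p = 0.0485). Nop14 had 38.2, 40.1 and 43.4 FPKM with LPS+anti-CD36, against 31.8, 35.6 and 32.3 FPKM with anti-CD36, groups that did not overlap, but did not pass (0.28 ± 0.15 SE, adjusted p = 0.152).

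Nop10 had 110.4, 105 and 88.8 FPKM with LPS+anti-CD36, against 179, 154 and 158 FPKM with anti-CD36, and fell (−0.69 ± 0.21 SE, adjusted p = 0.0166). Nhp2 had 221, 202 and 174 FPKM with LPS+anti-CD36, against 394, 255 and 301 FPKM with anti-CD36, and fell (−0.65 ± 0.24 SE, adjusted p = 0.0431). Nolc1 had 62.4, 68.4 and 74.7 FPKM with LPS+anti-CD36, against 92.9, 96.5 and 88.1 FPKM with anti-CD36, and fell (−0.43 ± 0.12 SE, adjusted p = 0.0124). In all 3 genes the groups did not overlap. Rrp1b had 11.8, 12.5 and 12.7 FPKM with LPS+anti-CD36, against 14.6, 16.7 and 15.3 FPKM with anti-CD36, and fell with the smallest p of the 6 (−0.31 ± 0.086 SE, adjusted p = 0.0109). Rrs1 (−0.42 ± 0.12 SE, adjusted p = 0.0128) and Pes1 (−0.24 ± 0.083 SE, adjusted p = 0.03) completed the 6. Polr1b (−0.086 ± 0.075 SE, adjusted p = 0.38) and Wdr12 (−0.048 ± 0.080 SE, adjusted p = 0.658), both called lower with LPS alone, did not pass here. Nor did Fbl (−0.24 ± 0.13 SE, adjusted p = 0.165), Dkc1 (−0.29), Gnl3 (−0.32), Ncl (−0.24), Npm1 (−0.11) and Bysl (0.16).

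These counts also moved with the libraries. Rises numbered 0 without LPS+anti-CD36 replicate 2 or anti-CD36 replicate 1, and 1 without LPS+anti-CD36 replicate 1 or 3, LPS replicate 2, anti-CD36 replicate 3 or untreated replicate 2 (adjusted p up to 0.113 for Nop56, 0.128 for Rrp12 and 0.224 for Utp4 over the alternatives run). Without any 1 of these libraries 13.6% to 15.7% of all genes rose. Falls numbered 3 without LPS+anti-CD36 replicate 1 or 3 or anti-CD36 replicate 3, where 25.5% to 26.5% of all genes fell. Nop10 was not called without LPS+anti-CD36 replicate 3 or anti-CD36 replicate 1, Rrs1 without anti-CD36 replicate 3 and Nolc1 without LPS+anti-CD36 replicate 1, while Rrp1b was called without any 1 library. Pes1 was not called without any 1 of the LPS+anti-CD36 libraries or anti-CD36 replicate 2 or 3, and Nhp2 without any of these LPS+anti-CD36 libraries, LPS replicate 2, anti-CD36 replicate 1 or 3 or untreated replicate 2. Under median-of-ratios scaling 5 rose and 1 fell (22.0% and 21.5% of all genes), and under TPM scaling 0 rose and 10 fell (13.8% and 32.5%).

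In the other lists Ubtf had 22.3, 22.6 and 22.5 FPKM with LPS+anti-CD36, against 42.7, 42.9 and 45.3 FPKM with anti-CD36, and fell (−0.93 ± 0.072 SE, adjusted p = 7.54e-07). Of the 117 genes of the 4 lists 9 rose and 20 fell, with Nol10 (0.52) and Rrp15 (0.43) among the rises and Ppan (−0.68), Dhx37 (−0.69), Naf1 (−0.44) and, of the exosome, Exosc8 (−0.90) among the falls. Of the ribosomal proteins Rpl30 rose (0.49). Of 20 genes of DNA replication and mitosis 20 fell (median −1.20), with Ccna2 at −1.86. Myc had 5.67, 5.07 and 4.81 FPKM with LPS+anti-CD36, against 0.136, 0.122 and 0.121 FPKM with anti-CD36, and rose (2.46 ± 0.091 SE, adjusted p = 1.24e-09). Mxi1 fell (−0.85), and so did Mycn (−1.30 ± 0.13 SE, adjusted p = 9.24e-06).

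Whether the LPS change differed with the antibody was tested directly by the interaction, the LPS change with the antibody minus that without it. No member was called in either direction (limma), where 0.496% of all genes were called higher and 0.788% lower. At an unadjusted p under 0.05, 4 members were higher and 0 lower, against 4.17% and 4.44% of all genes. The voom fit called 0 in either direction, against 0.0487% and 0.652% of all genes. The largest positive differences were in Nop56 (0.42 ± 0.14 SE, adjusted p = 0.305), Polr1b (0.40 ± 0.11 SE, adjusted p = 0.147) and Wdr12 (0.33 ± 0.11 SE, adjusted p = 0.344). The most negative were in Noc2l (−0.087 ± 0.14 SE), Nop14 (−0.071 ± 0.21 SE) and Polr1a (−0.066 ± 0.11 SE). Of the 38 members 28 lay above 0, with a median of 0.097, against 0.014 for all genes. With the trend on GC content and gene length removed Polr1b passed (adjusted p = 0.00611). Outside the members, Mxi1 was called (−0.76 ± 0.10 SE, adjusted p = 0.00251). Mxi1 had 7.80 ± 0.227 FPKM with LPS+anti-CD36 and 14.9 ± 0.949 FPKM with anti-CD36, against 14.8 ± 0.534 FPKM with LPS and 15.8 ± 0.800 FPKM in untreated cells. Myc (−0.44 ± 0.13 SE, adjusted p = 0.204) and Ubtf (0.27 ± 0.10 SE, adjusted p = 0.395) were not called. As a ratio of mean FPKM the LPS change of Myc was nearly equal, 42.0 without the antibody and 41.1 with it. Without LPS it averaged 0.187 FPKM in untreated cells and 0.126 FPKM with anti-CD36, well below the 1 FPKM added before taking logs.

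Set side by side, the 2 LPS changes had the same sign in 32 of 38 members (84.2%), against 87.1% of all genes tested. Polr1b had −0.086 with the antibody and −0.48 without it. Wdr12 had −0.048 with the antibody and −0.37 without it, and Nop56 0.31 with the antibody and −0.10 without it. Nhp2 (−0.65 with the antibody and −0.69 without) and Nolc1 (−0.43 with the antibody and −0.41 without) had falls that differed by less than their SE.

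**Figure D4:**
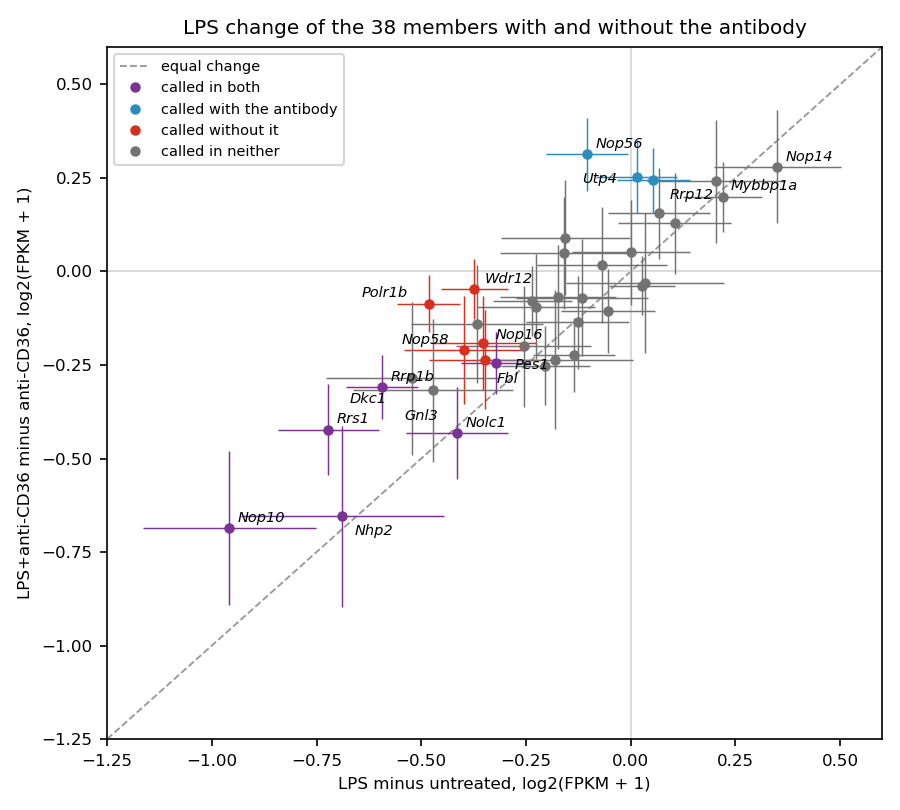
Each point is 1 of the 38 members, with its LPS change with the antibody on the vertical axis and without it on the horizontal axis, both on the log2(FPKM + 1) scale with 1 SE. Points on the dashed line changed equally. Nop10, Nhp2, Rrs1, Nolc1, Rrp1b and Pes1 are called in both, and Polr1b, Wdr12 and Nop56 lie farthest above the line.

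Of the 11 members that fell with LPS, 4 (Polr1b, Rrp1b, Wdr12 and Nop16) were among the 5 that rose with LPS+anti-CD36 against LPS. Both comparisons use the same LPS libraries, so a low value there moves both. Without Npm1 the members summed to 2063 to 2076 FPKM with LPS+anti-CD36, 1822 to 1852 FPKM with LPS, 2322 to 2432 FPKM with anti-CD36 and 2194 to 2284 FPKM in untreated cells. No group's libraries overlapped another's in this sum. As a share of a library's summed FPKM the order was less clear, at 0.575% to 0.595% with LPS+anti-CD36, 0.530% to 0.586% with LPS, 0.680% to 0.6997% with anti-CD36 and 0.661% to 0.730% in untreated cells. There LPS+anti-CD36 overlapped LPS, and anti-CD36 overlapped untreated cells. With Npm1, the most abundant member, the sums were 3121 to 3282 FPKM with LPS+anti-CD36, 2895 to 3194 FPKM with LPS, 3544 to 3636 FPKM with anti-CD36 and 3373 to 3539 FPKM in untreated cells, and the groups with LPS overlapped. As a share with Npm1, LPS+anti-CD36 averaged 0.903% ± 0.0408 and LPS 0.930% ± 0.0981 (SD, n = 3 each), which turns their order.

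Within a group the members' differences between libraries followed gene model length and GC content, which were not separated. LPS replicate 1 was the highest of the 3 LPS libraries for 19 members and the lowest for the other 19. The Spearman correlation of the members' deviations from the group mean with length, a description over genes of 1 library, was −0.60 in LPS replicate 1, 0.55 in replicate 2 and 0.56 in replicate 3. With GC content the sign was the other way, at 0.73, −0.65 and −0.74 in LPS replicates 1, 2 and 3. In untreated cells the values for length were −0.63, −0.45 and 0.61 in replicates 1, 2 and 3. Those for GC content were 0.54, 0.78 and −0.59. All genes tested showed the length pattern less (−0.45 in LPS replicate 1 and −0.56 in untreated replicate 1). Short members such as Nop10 and Nhp2 were high in replicate 1 and low in replicate 3 of these groups, and long ones such as Utp20 the reverse. The members called lower with LPS had a median length of 3971 bases, and those not called 3854 bases. Their median GC content was 51.2% for those called and 48.3% for those not called. The part of these patterns in the results was measured only by the fit with the GC and length trend removed.

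**Figure D5:**
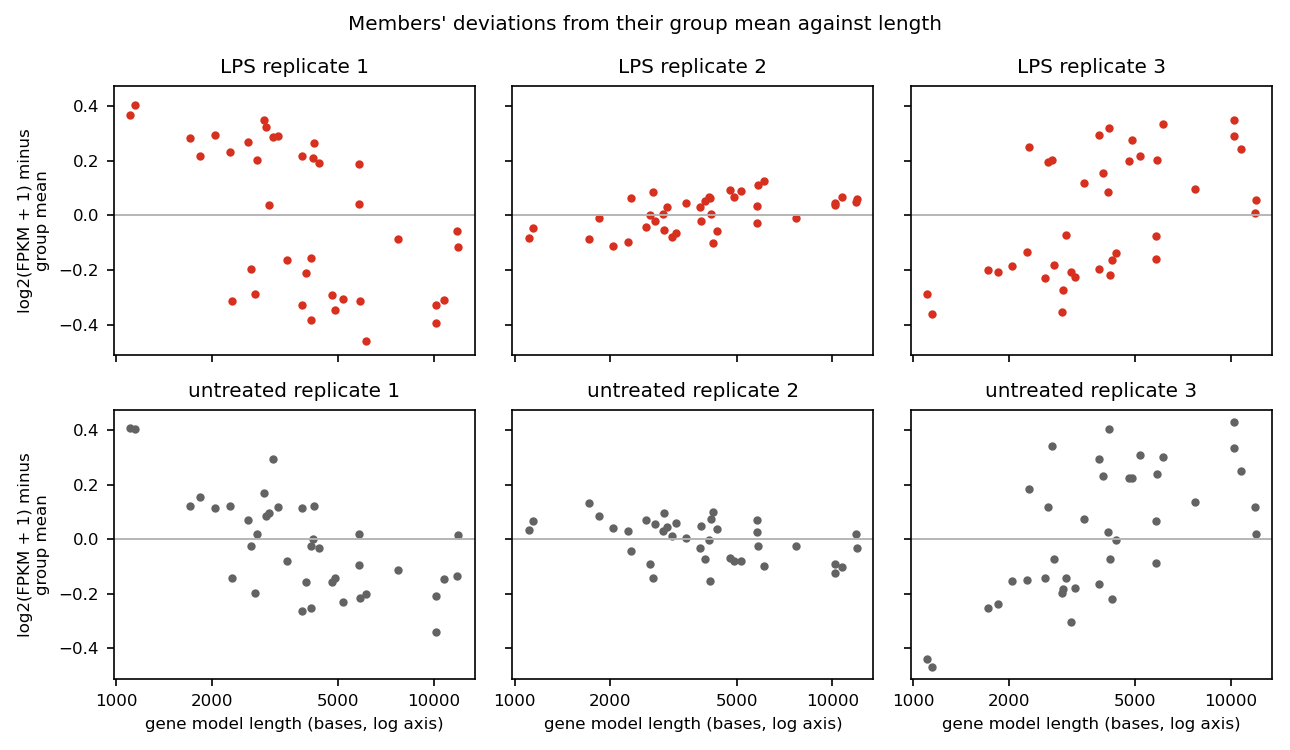
Each point is 1 of the 38 members, with gene model length in bases on a log axis and its log2(FPKM + 1) minus the mean of its group in that library. The shortest members, such as Nop10 and Nhp2, lie above 0 and long ones mostly below it in LPS replicate 1 and untreated replicate 1, with exceptions such as Ltv1, Npm1 and Nop14, which are short and lie below 0 there. The reverse holds in replicate 3 of both groups.

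The members did not all share 1 profile over the 12 libraries. Against the mean of the standardised members, Pearson r was highest in Rrp1b (0.96), Polr1b (0.95) and Wdr12 (0.92), and lowest in Mybbp1a (−0.58), Nop14 (−0.47) and Polr1a (−0.26). Among all other genes tested the 5 most like that mean were Gpn1 (0.98), 2410002F23Rik (0.97), Pomt1 (0.96), Rmnd5b (0.96) and Gcdh (0.96), over 12 libraries of 4 groups. Rmnd5b shares 44 bases of exon with Nhp2 on the other strand. Among the 9 members with an E-box in the promoter, Pes1 fell with LPS and the others did not pass. Their changes were negative in Tsr1 (−0.37), Nop2 (−0.23) and Wdr43 (−0.23). They were positive in Mybbp1a (0.22), Nle1 (0.10), Utp20 (0.035), Utp4 (0.014) and Ltv1 (0.0013). A link of these changes to the E-box was not tested.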

How the data were processed

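RNA of 12 libraries was measured, with 1 column of values per library. The labels describe standard libraries from total RNA, but the descriptions also carry a note of 10x Genomics, whose number counts up from library to library in the LPS groups. The values are treated here as bulk RNA. The authors deposited 1 table of FPKM values per gene. The submitters' processing notes name the aligner HISAT2 2.0.5 and the builds mm39 and hg38, without a role for each. The counting tool and whether it used strand are not given in the sources used here. The values were whole multiples of 1 fragment in 18165 of 18167 entries above 0 (99.99%, within 0.005 fragments), and 91.9% did so at the exon length of GENCODE M21 gene models. These steps gave the depths and the fragments used with voom. The 82 entries repeating a symbol were left out, and so was Il6, whose 6 untreated and anti-CD36 values equal those of another entry.

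Genes at 1 FPKM or more in 3 or more of 12 libraries were tested with limma 3.58.1 (R 4.3.3, intensity trend) on log2(FPKM + 1) over all 4 groups. This scale understates changes of low genes. P-values were adjusted by Benjamini-Hochberg over all 10276 genes and called under 0.05. There were 4 pairwise comparisons and the interaction. The fit was tested on simulated data. For LPS against untreated cells it called 16% of 50 genes changed 1.25-fold and 54% of 50 changed 1.5-fold. For LPS+anti-CD36 against LPS these were 8% and 56%, so 1.25-fold changes were mostly missed in the simulation. Of 50 genes changed 2-fold it called 78% in both comparisons, and of 50 changed 4-fold 94% and 100%. Far fewer genes changed in the simulation than were called in these data, which makes the adjusted threshold stricter there. These shares therefore do not give the share missed in these data. Values per library are given for the called member of smallest p in each role and comparison, for the 3 largest positive and 3 largest negative changes, and for Polr1b, Nop56, Fbl, Dkc1, Npm1, Ncl, Pes1, Bysl and Gnl3. Outside the members these are given for Myc, with the called gene of smallest p per direction in each other list named, except 1 that is not reported here. The members and lists were chosen with earlier results of these data known. Alternatives were another pseudocount, no filter or a stricter one, TPM and median-of-ratios scaling, a replicate block, removal of the GC and length trend, both together, no intensity trend, voom, only the groups compared and each library left out. The count of 23 covers these, without the interaction for the fit of only the groups compared. Python 3.11.15, numpy 2.4.6, pandas 2.3.3, scipy 1.17.1 and matplotlib 3.10.9 were used.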

Additional observations from a re-analysis of the deposited data

How the results depend on the processing

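Over 23 alternatives a member's call stayed on the same side of the threshold in 774 of 874 values for LPS against untreated cells, 870 of 874 for anti-CD36 against untreated cells, 807 of 874 for LPS+anti-CD36 against LPS, 788 of 874 for LPS+anti-CD36 against anti-CD36, and 832 of 836 for the interaction. These include changes that were not called and whose sign moved. Counts of members moved more, and the cause was not tested. A percentage in brackets is the share of all genes called in the same fit and direction. With LPS against untreated cells, 0 members rose (16.6%) and 11 fell (33.1%). Rises numbered 1 with TPM scaling (14.9%), 2 with median-of-ratios scaling (22.6%) and 6 with the GC content and length trend removed (24.9%). Falls numbered 7 with no filter (19.2%), 5 with median-of-ratios scaling (21.8%) and 5 with only the groups compared (24.0%). With anti-CD36 against untreated cells, 1 member rose with the trend removed (1.68%), in place of 0 (0.146%). With LPS+anti-CD36 against LPS, 5 members rose (7.34%), but 1 with TPM scaling (3.69%), 10 with the trend removed (11.8%) and 3 with only the groups compared (3.82%). With LPS+anti-CD36 against anti-CD36, 3 members rose (16.3%) and 6 fell (31.3%). Rises there numbered 0 with TPM scaling (13.8%), 5 with median-of-ratios scaling (22.0%), 8 with the trend removed (24.0%) and 5 with only the groups compared (19.2%). Falls there numbered 10 with TPM scaling (32.5%) and 1 with median-of-ratios scaling (21.5%). The interaction called 1 member higher, Polr1b, with the trend removed (1.36%). Leaving out 1 library at a time gave 0 to 1 rises (14.2% to 18.7%) and 7 to 15 falls (27.4% to 34.4%) with LPS. It gave 2 to 16 rises (2.25% to 19.2%) with LPS+anti-CD36 against LPS. With LPS+anti-CD36 against anti-CD36 it gave 0 to 4 rises (13.6% to 18.0%) and 3 to 8 falls (25.4% to 35.1%). All other counts were 0 to 0. Changes that were not called took the other sign and passed for Nop58 (0.22, anti-CD36 against untreated cells, with the trend removed, with and without the replicate block), Polr1a (0.11, LPS+anti-CD36 against anti-CD36, the same fits) and Ncl (0.18, LPS+anti-CD36 against LPS, with the trend removed and the replicate block).

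The replicate numbers paired the libraries only in part, and the main fit did not use them. Deviations of same-numbered libraries correlated at 0.45 to 0.78 for number 1, −0.32 to 0.43 for number 2 and −0.065 to 0.81 for number 3. A percentage in brackets is again the share of all genes. With the replicate block 2 members rose (19.4%) and 17 fell (40.2%) with LPS, and 2 rose (5.21%) with anti-CD36 against untreated cells. In the same fit 15 rose (18.4%) with LPS+anti-CD36 against LPS, and 5 rose (19.7%) and 10 fell (38.9%) with LPS+anti-CD36 against anti-CD36. With the replicate block and the GC and length trend removed these were 7 (27.3%) and 19 (38.9%) with LPS and 1 (4.38%) with anti-CD36. They were 16 (18.9%) with LPS+anti-CD36 against LPS, and 9 (26.8%) and 13 (37.9%) with LPS+anti-CD36 against anti-CD36. In the interaction 3 were higher (1.97%). Over all genes the block called 535 higher and 629 lower with anti-CD36 against untreated cells, in place of 15 and 20. Depth does not limit the members, which all had 1416 fragments or more in each library.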
